A study of Mus musculus with 8 samples.

Results

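The genes for fibroblast growth factors (FGF), bone morphogenetic proteins (BMP), growth and differentiation factors (GDF) and their receptors were placed against a map of RelA binding in mouse fibroblasts. Protein-coding genes of chromosomes 1 to 19 were taken whose symbol is Fgf, Fgfr, Bmp or Gdf followed by a digit, with Bmpr1a, Bmpr1b and Bmpr2 added. This gave 49 of 20558 protein-coding genes: 20 FGF ligands, 9 BMP ligands, 10 GDF ligands, 4 FGF receptors, 3 BMP receptors and 3 genes that belong to none of these families although their symbols match. The FGF ligands are counted by family and include Fgf11, Fgf12 and Fgf14, whose proteins stay inside the cell. RelA (p65) is the NF-kB subunit that carries a strong activation domain. Its binding was mapped by chromatin immunoprecipitation and sequencing in primary fibroblasts taken from C57BL/6 embryos of wild-type genotype. The cells had been serum-starved overnight and were then given TNF, an inflammatory cytokine, at 10 ng/ml. The labels name 2 RelA libraries each at 0, 0.5 and 3 h of TNF, and 2 input DNA libraries.

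One list of 9829 peaks served for the whole experiment. It gives a start and an end for each peak, with no height and no library attached. No time could therefore be set against another, the depth was unknown, and no value below has a spread between replicates. The values are a description of this list, no test was run on them, and no difference in shares or distances was tested. Positions of binding give no level of any transcript, so the fibroblast label could not be checked against marker genes and no statement on expression follows.

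FGF ligands signal through receptor tyrosine kinases together with heparan sulfate, and the hormone-like members use Klotho co-receptors instead. BMP and GDF ligands belong to the TGF-beta superfamily and bring together type I and type II serine/threonine kinase receptors, which phosphorylate SMAD proteins. Fibroblasts and their embryonic precursors are a source of several of these ligands, among them the FGFs that act on neighbouring epithelium, and they respond to many of them.

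RelA peaks lay at or near these genes about as often as at other genes. A peak centre lay inside the gene or within 10 kb of an end at 13 of 49 members (26.5%), against 23.8% of the 20509 other protein-coding genes. The centre was inside the gene at 11 members (22.4%), against 15.0% of other genes. Within 50 kb the count was 23 of 49 (46.9%), against 44.5% of other genes. The median distance from a gene to its nearest peak centre, set to 0 for a centre inside, was 62.9 kb over the members and 64.5 kb over other genes. Gdf2, at 7.46 kb, was the farthest member counted within 10 kb, and Fgfr1, at 12.8 kb, the nearest one left out.

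**Figure D1:**
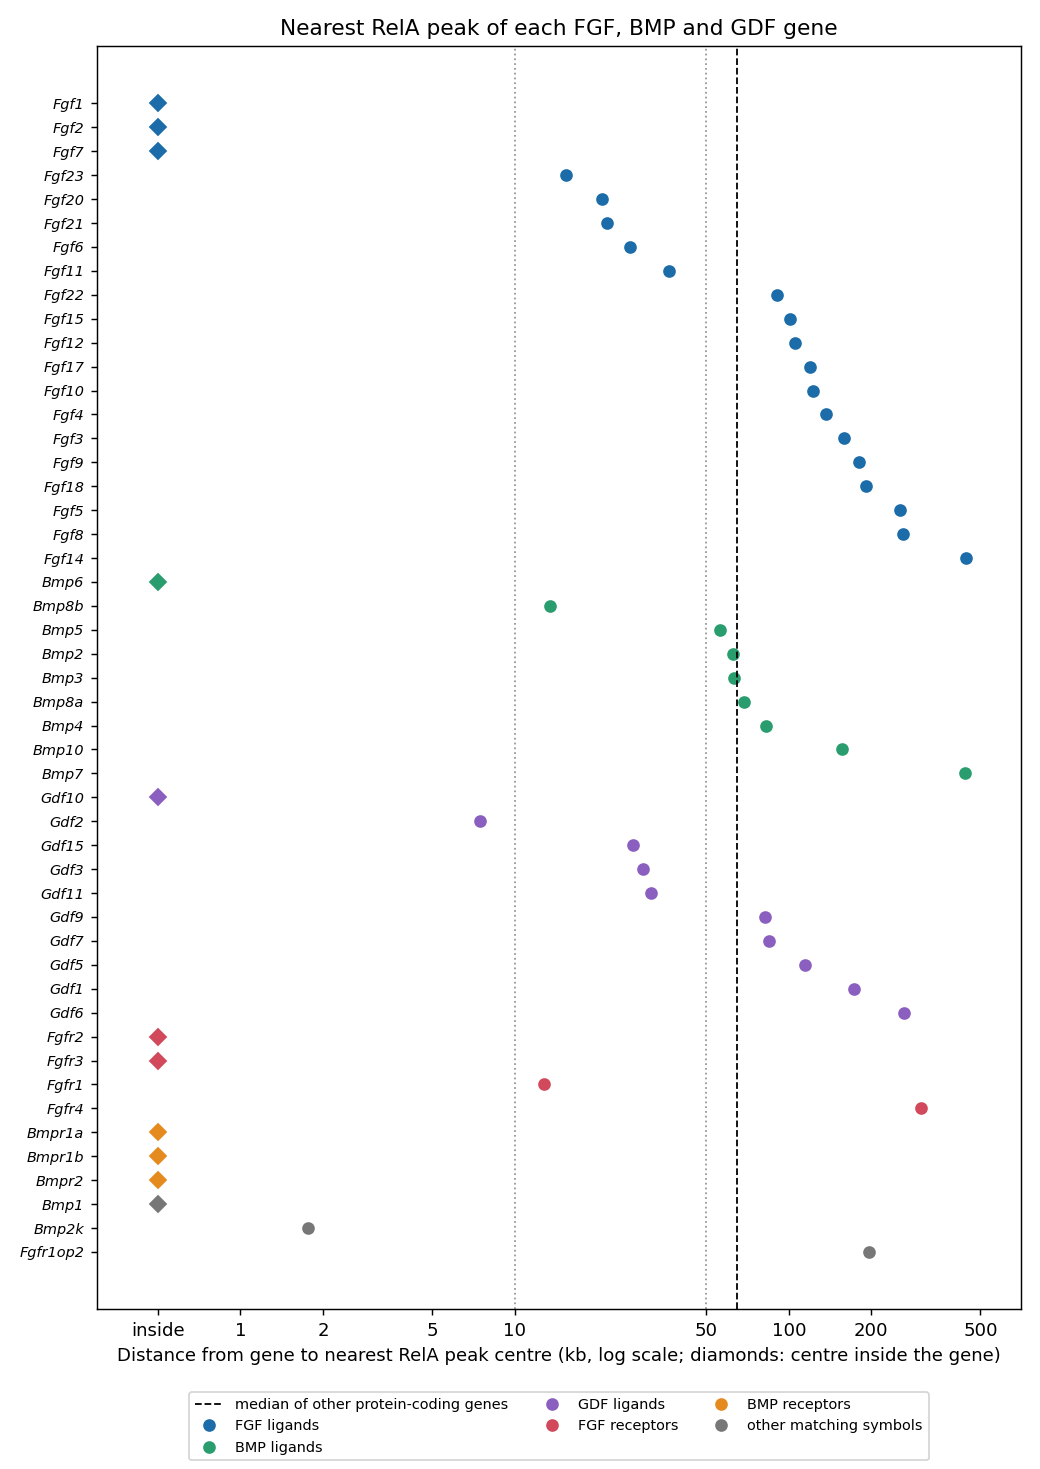
Distance in kb (log scale) from each of the 49 genes to its nearest RelA peak centre, coloured by family, with diamonds for a centre inside the gene, dotted lines at 10 and 50 kb and a dashed line at the median of other protein-coding genes (64.5 kb). The 11 genes with a peak inside (22.4%, against 15.0% of other genes) include all 3 BMP receptor genes. These 3 are 92.3 to 332 kb long. Beyond 100 kb lie 11 of 20 FGF ligand genes (55.0%), against 39.6% of other genes. Among these 11, Fgf15, Fgf4 and Fgf3 have the same nearest peak. The median gene length is 9.29 kb for FGF ligands and 17.6 kb for other genes.

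**Figure D2:**
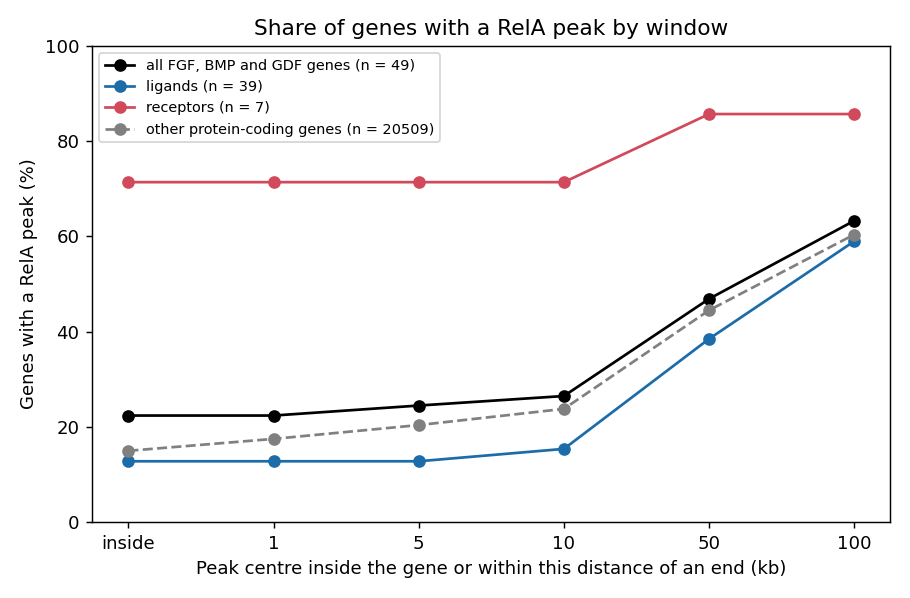
Percentage of genes with a RelA peak centre inside the gene or within the stated distance of an end, for all 49 genes, the 39 ligand genes, the 7 receptor genes and 20509 other protein-coding genes. At 10 kb the shares are 26.5, 15.4, 71.4 and 23.8%, in that order.

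The start site of a gene could be placed for the 35 members with an entry in the RefSeq promoter table (GRCm38.p6). Of these, 3 (8.57%) had a start site less than 1 kb from a peak centre, against 6.83% of the other genes with an entry. They were Fgf7, at 0.0660 kb, Fgfr2, at 0.426 kb, and Bmpr2, at 0.497 kb. A promoter window of 250 bases before to 50 after the start overlapped a peak for Fgf7 alone of these 35 members (1 of 44 windows, where several windows can belong to a gene), and 4.15% of all 32619 windows did. The centres of the Fgfr2 and Bmpr2 peaks lay inside the gene, and neither peak reached the window. The 250 bases before the start are shown for these 3 genes because they carry the peaks closest to a start, 5′ to 3′ on the strand of the gene. They are at chr2:126034408-126034657 (plus strand) for Fgf7, chr7:130266809-130267058 (minus strand) for Fgfr2 and chr1:59764029-59764278 (plus strand) for Bmpr2.
Fgf7: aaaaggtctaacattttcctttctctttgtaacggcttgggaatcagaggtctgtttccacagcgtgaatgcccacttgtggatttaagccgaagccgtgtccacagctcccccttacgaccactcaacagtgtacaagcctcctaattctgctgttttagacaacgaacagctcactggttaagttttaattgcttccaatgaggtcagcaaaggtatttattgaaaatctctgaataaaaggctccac
Fgfr2: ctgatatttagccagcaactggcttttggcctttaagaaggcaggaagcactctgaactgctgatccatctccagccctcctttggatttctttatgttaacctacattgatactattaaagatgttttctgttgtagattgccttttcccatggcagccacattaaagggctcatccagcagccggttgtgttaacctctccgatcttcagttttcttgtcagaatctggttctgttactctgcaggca
Bmpr2: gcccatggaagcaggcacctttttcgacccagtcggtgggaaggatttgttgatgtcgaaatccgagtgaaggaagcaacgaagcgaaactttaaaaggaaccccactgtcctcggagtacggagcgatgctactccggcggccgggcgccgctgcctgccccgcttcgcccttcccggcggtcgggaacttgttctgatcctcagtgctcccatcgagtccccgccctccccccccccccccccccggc

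Both strands of each window were searched for the kappaB consensus, the letters that NF-kB dimers favour, and for the AP-1 motif TGANTCA, where N is any base. Neither was found in the windows of Fgf7, Fgfr2 and Bmpr2, which says only that these letters are not in those windows. The kappaB consensus was in 4.53% of all promoter windows and in 23.0% of the 1353 windows that overlapped a peak. The AP-1 motif was in 7.85% of all windows and 6.50% of those with a peak. Among the members, a kappaB match stood in windows of Fgfr4 and Gdf7, whose genes lay 303 and 84.9 kb from the nearest peak centre. An AP-1 match stood in a window of Fgf12. The Fgf12 gene lay 106 kb from the nearest peak centre, and its start sites lay at least 394 kb from one. The Fgfr4 and Gdf7 stretches are shown because they hold the letters without a peak nearby, with the match in capitals. They run from 60 bases before to 10 bases after the start, at chr13:55152758-55152827 (plus strand) for Fgfr4 and chr12:8301945-8302014 (minus strand) for Gdf7.
Fgfr4: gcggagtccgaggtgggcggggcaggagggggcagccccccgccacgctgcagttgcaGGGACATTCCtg
Gdf7: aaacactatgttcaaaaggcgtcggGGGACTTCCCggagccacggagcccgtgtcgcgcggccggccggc

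Of the 20 FGF ligand genes, 3 (15.0%) had a peak inside the gene, against 15.0% of other genes. No other FGF ligand gene had one within 10 kb, so the share inside or within 10 kb was also 15.0%, against 23.8%. Without the intracellular Fgf11, Fgf12 and Fgf14 the count was 3 of 17 (17.6%). The 3 genes with a peak, Fgf1, Fgf2 and Fgf7, encode FGFs that act on nearby cells. Fgf7 encodes keratinocyte growth factor, a mesenchymal signal to epithelium. Its first peak spanned positions 126034381 to 126035067 of chromosome 2 (687 bp), over the start site whose upstream bases are shown above. A second peak, of 722 bp, was centred 25.5 kb from the nearer gene end. Both centres also lay inside Fam227b, which overlaps Fgf7.

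Fgf1 encodes acidic FGF, which lacks a classical signal peptide. It held a 785 bp peak centred 0.313 kb from a gene end, on chromosome 18 from 38928765 to 38929549. That centre was also inside Arhgap26 and Gm5820. Further peaks lay 14.7 and 23.6 kb from Fgf1, both within Arhgap26. Fgf2, the gene for basic FGF, held a 745 bp peak on chromosome 3 from 37398941 to 37399685. Its centre was 50.7 kb from the Fgf2 start and 10.8 kb from the nearer Fgf2 end, but 5.67 kb from the end of Nudt6.

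The other 17 FGF ligand genes had no peak within 10 kb. Fgf23 and Fgf6, which lie 48.2 kb apart on chromosome 6, shared 2 peaks between them. Fgf23, a bone hormone that lowers blood phosphate, was 15.4 and 21.8 kb from those peaks, which lay upstream of it. Fgf6, a muscle-linked FGF, was 26.3 and 32.7 kb from the same peaks. Fgf20 (20.8 kb), Fgf21 (21.8 kb) and Fgf11 (36.6 kb) were within 50 kb of 1 peak each. Those peaks stood closer to the ends of other genes, Micu3 at 0.289 kb, Bcat2 at 2.39 kb and Slc35g3 at 0.439 kb. Fgf21 encodes a metabolic hormone of the liver, and Fgf11 a member of the group that stays inside the cell.

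The 12 FGF ligand genes beyond 50 kb began with the neuronal and skin gene Fgf22 at 90.6 kb. The neighbours Fgf15, Fgf4 and Fgf3 on chromosome 7 had the same nearest peak, at 101, 137 and 159 kb. Fgf15 encodes the gut hormone that restrains bile acid synthesis, and Fgf3 and Fgf4 encode embryonic signals. Fgf17 was 119 kb and Fgf10, the mesenchymal signal for lung and limb budding, 122 kb from a peak. Fgf9 lay at 180 kb, Fgf18 at 191 kb, Fgf5, which ends hair growth, at 255 kb and Fgf8, a limb and brain organiser, at 261 kb. Fgf12 (595 kb long) and Fgf14 (703 kb long), both for intracellular FGFs that bind sodium channels, were the longest members and held no peak. Their nearest peaks were 106 and 443 kb away.

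BMP ligand genes had a peak inside or within 10 kb at 1 of 9 (11.1%), against 23.8% of other genes. Bmp6, which drives the liver's iron hormone hepcidin, held a 668 bp peak on chromosome 13 from 38410288 to 38410955. It was centred 64.9 kb from the start of the 155 kb gene. Bmp8b followed at 13.5 kb, where the peak lay inside Ppie, 0.404 kb from an end of that gene. Another 5 of 9 BMP ligand genes (55.6%), against 15.9% of other genes, were between 50 and 100 kb from a peak. They were Bmp5 (56.3 kb), Bmp2 (62.9 kb), Bmp3 (63.1 kb), Bmp8a (68.9 kb) and Bmp4 (82.7 kb), and this band was singled out after their values were seen. Bmp2 and Bmp4 encode closely related bone and patterning signals, and Bmp3 a BMP that opposes them. Heart-restricted Bmp10 was 157 kb and Bmp7, needed for kidney and eye, 438 kb from a peak.

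GDF ligand genes had a peak inside or within 10 kb at 2 of 10 (20.0%), against 23.8% of other genes. Both counts came from 1 peak. This 923 bp peak, on chromosome 14 from 33933117 to 33934039, was inside Gdf10 and 2.94 kb from its end. Gdf10 encodes a relative of Bmp3. Gdf2 starts 4.52 kb from Gdf10, encodes the circulating factor BMP9 that acts on endothelium, and was 7.46 kb from the same centre. A further peak lay 26.7 kb upstream of Gdf10 and was 44.1 kb from Gdf2, which had 1 more at 47.0 kb, inside Gm30083.

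Gdf15, the stress-induced cytokine gene, was 26.9 kb from its nearest peak, which lay inside Pgpep1 and 1.05 kb from an end of it. Gdf3 (29.5 kb) and Gdf11 (31.4 kb), genes for early embryonic and axial patterning signals, likewise had peaks closer to another gene end, of Apobec1 at 1.89 kb and Bloc1s1 at 0.367 kb. The remaining GDF genes were the oocyte factor gene Gdf9 (82.0 kb), Gdf7 (84.9 kb), the joint factor gene Gdf5 (115 kb), the left-right signal gene Gdf1 (173 kb) and the skeletal factor gene Gdf6 (262 kb).

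Among FGF receptor genes, 2 of 4 had a peak inside, against 15.0% of other genes. By length, a peak lay inside or within 10 kb at 1 of 2 FGF receptor genes of 50 kb or more, against 45.1% of other genes. Of those of 10 to under 50 kb it was 1 of 2, against 22.0%. Fgfr2, on chromosome 7 from 130162451 to 130266808, had 4 peaks inside its 104 kb, more than any other member. The 4 were 799, 484, 954 and 400 bp wide and were centred 84.1, 65.3, 50.9 and 0.426 kb from a start site. The Fgfr2 protein exists in an epithelial and a mesenchymal splice form, and the mesenchymal form is the one fibroblasts use. Fgfr3, a receptor that restrains bone growth, held 1 peak of 563 bp, centred 8.94 kb from its start. Another lay 26.2 kb upstream and was closer to an end of Tacc3, at 23.3 kb. Fgfr1, the main FGF receptor of mesenchyme, had none inside but peaks at 12.8 and 21.5 kb, the second one inside Letm2. Fgfr4, a receptor of liver and muscle, was 303 kb from a peak.

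All 3 BMP receptor genes had a peak inside, as did 15.0% of other genes. The 3 genes are long, at 92.3 kb (Bmpr1a), 332 kb (Bmpr1b) and 114 kb (Bmpr2). Of other genes of 50 kb or more, 45.1% had a peak inside or within 10 kb. Bmpr2 encodes the type II receptor and held a 570 bp peak on chromosome 1 from 59764492 to 59765061, centred 0.497 kb from its start, with a second peak 9.18 kb beyond its other end. The type I receptor gene Bmpr1a held 1 peak of 693 bp, 42.7 kb from its nearer end. The type I receptor gene Bmpr1b held 2, of 593 and 540 bp, which were 12.5 and 14.9 kb from annotated start sites of this 332 kb gene. The same 2 centres were 81.8 and 130 kb from its nearer end. Outside these genes, 1 more peak lay 32.1 kb from Bmpr1a, inside Mmrn2, and 1 lay 45.7 kb from Bmpr1b, inside Unc5c. Counted by distance to gene ends alone, within 10 kb, 3 of 7 receptor genes (Bmpr2, Fgfr2 and Fgfr3) kept a peak, against 17.8% of other genes.

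The 3 genes that share only the name were Bmp1, Bmp2k and Fgfr1op2. Bmp1 encodes the proteinase that trims procollagen and also frees BMPs from the inhibitor chordin. It held 2 peaks, of 566 and 667 bp, centred 22.5 and 3.76 kb from its nearer end. Bmp2k, a kinase gene, had a peak 1.77 kb upstream of the gene and another at 17.5 kb. Fgfr1op2 was 197 kb from a peak.

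**Figure D3:**
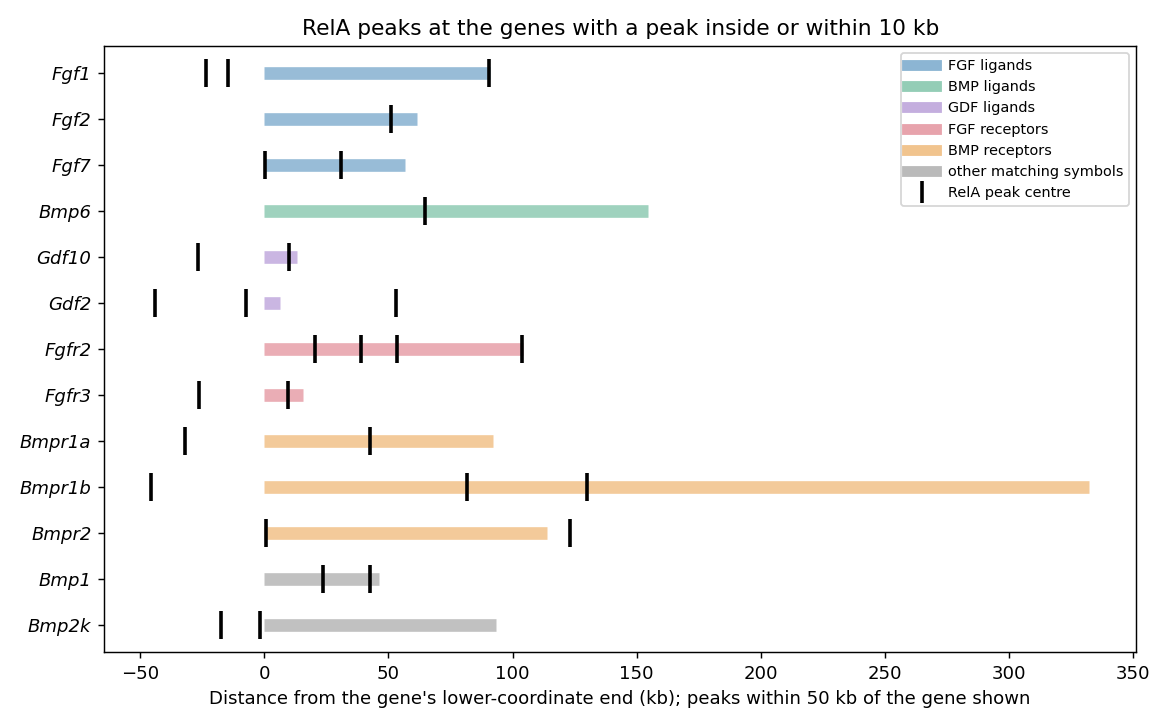
The 13 genes with a peak centre inside or within 10 kb, each drawn as a bar from its lower-coordinate end (0 kb), coloured by family, with a black tick for every RelA peak centre within 50 kb of the gene. Fgfr2 has 4 ticks on its bar, Fgf7, Fgf1, Fgfr2 and Bmpr2 have a tick near an end, and the 923 bp peak at Gdf10 is also the tick just left of Gdf2.

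In all, 19 separate peaks lay inside or within 10 kb of a member, 17 of them inside. Of these 17, 4 were within 1 kb of the nearer gene end (Fgf1, Fgf7, Fgfr2 and Bmpr2) and 13 were farther inside. For 18 of the 19 peaks the nearest protein-coding gene end belonged to a member, the exception being the Fgf2 peak. Of the 10 members whose nearest peak was 10 to 50 kb away, 3 had a peak whose nearest gene end belonged to a member, which was Fgf23 for both Fgf23 and Fgf6, and Fgfr1 itself. For the other 7 members that end belonged to a gene outside the 49. The 19 peaks had a median width of 667 bp and a range of 400 to 954 bp, against a median of 687 bp and a range of 301 to 2015 bp for the other 9669 peaks of these chromosomes.

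Ligand and receptor genes differed in counts. A peak lay inside or within 10 kb at 6 of 39 ligand genes (15.4%) and at 5 of 7 receptor genes (71.4%), beside the 23.8% of other genes. Without the 3 intracellular FGFs the ligand count was 6 of 36 (16.7%). The median distance to a peak was 82.0 kb for ligands and 0 kb for receptors. The groups also differed in length, with a median gene of 10.7 kb for ligands, 92.3 kb for receptors and 17.6 kb for other genes, and a longer gene offers more sequence in which a peak can fall. Among genes of 50 kb or more, 4 of 9 ligand genes (44.4%) and 4 of 5 receptor genes (80.0%) had a peak, against 45.1% of other genes. Among genes of 10 to under 50 kb the counts were 1 of 11 ligand genes and 1 of 2 receptor genes, against 22.0% of other genes. Under 10 kb there were 19 ligand genes and no receptor gene, and 1 of them (5.26%) had a peak, against 12.1% of other genes. That gene was Gdf2.

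**Figure D4:**
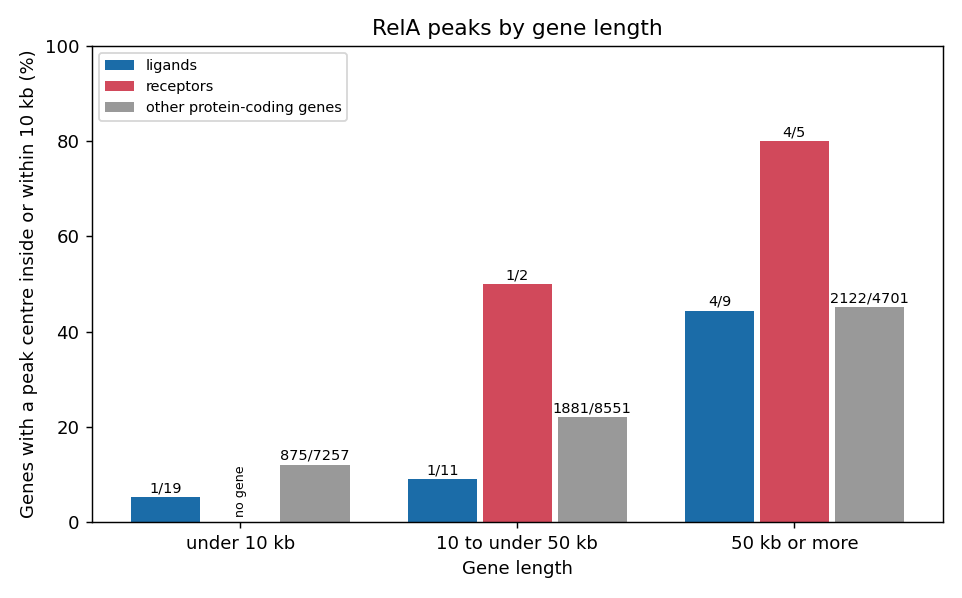
Percentage of ligand genes, receptor genes and other protein-coding genes with a RelA peak centre inside or within 10 kb, in 3 classes of gene length, with the number of genes with a peak over the number in the class above each bar. Of the genes of 50 kb or more, 44.4% of ligand, 80.0% of receptor and 45.1% of other genes have a peak, and there is no receptor gene under 10 kb.

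Peaks per megabase of gene and 10 kb flanks, with overlapping stretches counted once, take length into account directly. The ligand genes had 6 peaks in 3.05 Mb (1.97 per Mb) and the receptor genes 10 peaks in 0.871 Mb (11.5 per Mb), beside 4.91 per Mb for other genes. A few genes weighed on both values. Without Fgf12 and Fgf14, the longest members and without a peak, the ligand value was 3.50 per Mb. Without Fgfr2, which held 4 of the 10 receptor peaks, the receptor value was 8.03 per Mb. By family, the values were 1.87 per Mb for FGF ligands, 1.57 for BMP ligands, 3.68 for GDF ligands, 18.3 for FGF receptors, 8.35 for BMP receptors and 13.6 for Bmp1, Bmp2k and Fgfr1op2 together. These values rest on 4, 1, 1, 5, 5 and 3 peaks, so the order of the families carries little weight. Without Fgfr2, the FGF receptor value was 6.75 per Mb and rested on 1 peak. With 50 kb flanks the ligand and receptor values were 3.23 and 10.5 per Mb, beside 4.79 per Mb for other genes.

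The lists of other genes of both pathways were counted in the same way. Over all lists, 33 of 80 genes (41.2%) had a peak inside or within 10 kb, beside the 23.8% of other protein-coding genes given above, with a median gene length of 33.8 kb. By length, the counts were 17 of 29 genes of 50 kb or more (58.6%, against 45.1% of other genes), 11 of 30 of 10 to under 50 kb (36.7%, against 22.0%) and 5 of 21 under 10 kb (23.8%, against 12.1%). Activin and further receptors of BMPs and GDFs had the highest share of the lists, 7 of 11 (63.6%). They included the type I receptor genes Acvr1, Acvr1b and Acvr1c, each with a peak inside. Among SMAD genes and BMP target genes the count was 5 of 12 (41.7%). Peaks lay inside Msx1, a patterning factor gene, and inside Smad1 and Smad5, which encode the SMADs that BMP receptors phosphorylate.

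BMP antagonists and related binding proteins had a peak inside or within 10 kb at 7 of 19 genes (36.8%), beside 23.8% of other protein-coding genes. Among them were Bmper, Crim1 and Fstl1, of 262, 176 and 59.5 kb, with 3, 3 and 2 peaks inside. FGF co-receptors and binding proteins had such a peak at 6 of 14 (42.9%). Flrt2, Gpc1, a heparan sulfate proteoglycan gene, and Gpc6 held 1, 1 and 5 peaks, Gpc6 over 1050 kb. Genes that relay the FGF signal had a peak at 5 of 13 (38.5%). Peaks lay inside the docking protein gene Gab1 (2, over 116 kb), the adaptor gene Grb2 (1) and Nras (1). Feedback inhibitors and ETS factor genes had one at 3 of 11. These were Spred2, with 3 peaks inside, the MAP kinase phosphatase gene Dusp6, with a peak 0.224 kb from its end, and Spry1, at 9.50 kb.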

How the data were processed

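The submitters' processing notes list the mm10 build with MACS2, deepTools, Picard 1.13, SAMtools, Bowtie2 2.3 and cutadapt 1.9.1. How the peak threshold was set, how input was used and whether libraries were pooled is not stated there. Cells were fixed with disuccinimidyl glutarate before formaldehyde, per the labels' protocols, which can hold proteins that reach DNA through other proteins. The deposited values are peak starts and ends in base pairs, with no score. Starts were recounted from 1. Gene positions came from the RefSeq GRCm38.p6 table, the assembly mm10 names, without 345 genes on scaffolds. Distances ran from the peak centre to the gene, and start sites and strands came from the RefSeq promoter table. The calculations used Python 3.11.15, pandas 2.3.3 and NumPy 2.4.6, and were tested on simulated peaks at known distances.

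Members, families and pathway lists were chosen with earlier results of these data known, the lists from general knowledge. Named genes were all members, the 3 list genes closest to a peak (ties by symbol), and the gene nearest to a peak where this was not the member. No set test or test between groups was run. Alternatives were other windows, gene ends only, any overlap, wider peaks, merged peaks, 1 gene per peak, and ligands and receptors only.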

Additional observations from a re-analysis of the deposited data

How the results depend on the processing

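The count of 13 members within 10 kb was 23 at 50 kb, 31 at 100 kb and 7 with peaks of at least the median width only, where other genes stood at 44.5, 60.4 and 14.7%. The 23 members within 50 kb became 15 with the wider peaks (29.6% of other genes) and 14 with each peak given to its nearest gene (22.4%). The 6 ligand genes became 15 at 50 kb and 23 at 100 kb. The 5 receptor genes became 3 by gene ends alone (17.8% of other genes) and 2 with the wider peaks. The 33 pathway genes became 51 at 50 kb, 20 by gene ends alone (17.7% of genes in no list) and 20 with the wider peaks. The median distance of 62.9 kb became 144 kb with the wider peaks (132 kb for other genes), as fewer peaks were left. Over the 21 members that were the nearest gene of a peak it was 0 kb, as it was for other genes under the same rule. That rule leaves out genes that own no peak and gives 0 kb to a gene holding its peak, so this median says little. Counts under the remaining alternatives stayed within 1.5 times. Merging and any overlap kept the same 13 members, and giving each peak to its nearest gene dropped Gdf2. The densities without Fgf12 and Fgf14 or without Fgfr2, and the counts without intracellular FGFs, were added after seeing the data. These densities were not stable. The ligand value went from 1.97 to 3.50 per Mb without Fgf12 and Fgf14. Without Fgfr2 the receptor value went from 11.5 to 8.03 per Mb and the FGF receptor value from 18.3 to 6.75 per Mb. No paired analysis was possible because the list holds no value per library, so no library could be left out either. Peak height and depth are unknown, so a weak site missed by the peak caller cannot be told apart from an unbound one.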

Other observations

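The 3 genes on chromosome X with matching symbols lay outside the rule. Fgf13, for an intracellular FGF like those of Fgf12 and Fgf14, had a peak centre inside the gene. Fgf16 was 373 kb and Bmp15, an oocyte factor gene, 217 kb from a peak. On chromosome X, 7.48% of protein-coding genes had a peak inside or within 10 kb.

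Chromosome 14, chosen after its values were seen, carried 8 of the 49 members, and 4 of them (Bmp1, Bmpr1a, Gdf10 and Gdf2) had a peak inside or within 10 kb, against 20.0% of the other genes of that chromosome. Gdf10 and Gdf2 shared their peak.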
